A study of Caenorhabditis elegans with 2 samples.

Results

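The regions described here are BLMP-1 binding summits that lay close to the start of exactly 1 gene. A summit is the base at which a binding peak is highest. Of the 3031 nuclear summits in the thresholded peak list, 591 were kept because they lay in the promoter window (reaching from 1000 bp before to 200 bp past each annotated start) of a single protein-coding gene and at most 250 bp from the nearest annotated start of that gene. They belonged to 575 genes. A further 582 summits lay in the window of a single gene but farther than 250 bp from its start ("upstream summits" below, of which 14 lay downstream of their nearest start), 342 lay in promoter windows shared by several genes and 1516 lay outside promoter windows.

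The chromatin came from whole Caenorhabditis elegans hermaphrodites, L2 larvae, and was sonicated, immunoprecipitated and sequenced. All animals were of strain OP109, genotype unc-119(ed3) III; wgIs109, in which an integrated transgene expresses BLMP-1 with GFP and FLAG at its C terminus. There was 1 group, with 2 biological replicates that the labels number 2 and 3, and no second genotype, stage or treatment. The thresholded list rests on both replicates, no file gives read counts, and the depth is therefore unknown. The signal of a peak is the authors' own value on a scale that the sources used here do not give, so signals and ranks are compared within 1 list only.

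BLMP-1 is a zinc finger transcription factor, the worm counterpart of mammalian PRDM1 (Blimp-1), which binds a sequence around GAAAG and mostly represses transcription. Worms lacking it have defects of the epidermis and cuticle and of developmental timing. A promoter is the sequence near the start of a gene where the transcription machinery assembles. In C. elegans many transcripts are trans-spliced, meaning that their first bases are replaced by a leader, so annotated starts often lie downstream of the place where transcription begins and the distances below are approximate.

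The sequences at several of the strongest regions are shown because they carry the words that the comparisons below turn on. Each reaches 50 bp to both sides of a summit, written along the strand of the gene (RefSeq sequence of WBcel235, the assembly also called ce11). In the first set, capitals mark AGYGAAAG, the core of the mammalian PRDM1 site with Y for C or T, on either strand (CTTTCACT is AGTGAAAG read on the other strand). In lpr-4 a second run of capitals marks GAGACGCA, a leading word of the scan of all 8-base words. The regions are those of W03F8.4 (chrIV:5183846-5183946, plus strand), F11G11.13 (chrII:4876234-4876334, minus), the nuclear receptor gene nhr-50 (chrV:16000664-16000764, minus), the adducin gene add-2 (chrV:12011839-12011939, minus), the glutamine synthetase gene gln-3 (chrIV:16170809-16170909, minus) and the lipocalin-related gene lpr-4 (chrX:11064982-11065082, plus).
W03F8.4: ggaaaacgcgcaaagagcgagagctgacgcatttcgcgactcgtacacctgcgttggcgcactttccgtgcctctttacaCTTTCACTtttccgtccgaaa
F11G11.13: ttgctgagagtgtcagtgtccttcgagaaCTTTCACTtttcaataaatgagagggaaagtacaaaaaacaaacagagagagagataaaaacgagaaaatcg
nhr-50: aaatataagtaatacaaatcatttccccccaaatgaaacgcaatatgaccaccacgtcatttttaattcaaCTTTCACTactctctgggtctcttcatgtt
add-2: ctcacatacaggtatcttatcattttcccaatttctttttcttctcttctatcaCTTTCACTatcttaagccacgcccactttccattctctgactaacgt
gln-3: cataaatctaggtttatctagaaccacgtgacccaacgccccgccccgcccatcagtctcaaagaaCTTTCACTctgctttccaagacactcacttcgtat
lpr-4: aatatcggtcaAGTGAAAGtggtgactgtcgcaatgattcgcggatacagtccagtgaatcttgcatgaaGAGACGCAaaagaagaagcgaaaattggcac

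For comparison, 4 strong summits without AGYGAAAG within 50 bp are shown, those of lgg-2, which encodes an LC3-like autophagy protein (chrIV:10936059-10936159, minus strand), F56C9.10 (chrIII:7335354-7335454, minus), the nuclear receptor gene nhr-25 (chrX:13009057-13009157, plus) and K01A2.5 (chrII:301152-301252, plus). The last sequence is that of dmd-7, a gene of the doublesex and mab-3 family (chrV:6246638-6246738, plus), with AGACGCAG in capitals on the other strand (CTGCGTCT).
lgg-2: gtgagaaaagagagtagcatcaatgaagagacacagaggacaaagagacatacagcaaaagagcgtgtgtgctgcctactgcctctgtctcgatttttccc
F56C9.10: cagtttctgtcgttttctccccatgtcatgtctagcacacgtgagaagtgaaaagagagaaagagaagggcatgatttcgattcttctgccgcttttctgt
nhr-25: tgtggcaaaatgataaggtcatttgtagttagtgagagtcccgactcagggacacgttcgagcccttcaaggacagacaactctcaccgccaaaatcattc
K01A2.5: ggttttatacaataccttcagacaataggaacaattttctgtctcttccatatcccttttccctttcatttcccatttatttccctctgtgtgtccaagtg
dmd-7: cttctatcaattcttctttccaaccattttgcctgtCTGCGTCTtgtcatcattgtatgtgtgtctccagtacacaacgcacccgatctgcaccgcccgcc

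The signals of the 591 summits ran from 27.2 to 426, with a median of 42.0 and quartiles of 33.7 and 63.3. The strongest lay 227 bp upstream of W03F8.4 (chromosome IV, 5183896), with a signal of 426, and ranked 13 in the relaxed list of replicate 2 and 17 in that of replicate 3. The next, 244 bp upstream of blmp-1 itself on chromosome I (summit 10409058, signal 421), ranked 10 and 21. The strain carries an inserted blmp-1 transgene, and reads from the inserted and the native copy cannot be told apart. The sources used here do not say whether the insertion includes this promoter.

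The summit at edc-4, which encodes a scaffold of mRNA decapping, had a signal of 381 and lay 124 bp upstream of the start (chromosome I, summit 3350038). At lgg-2 the signal was 279 and the summit 206 bp upstream (chromosome IV, 10936109), and at F56C9.10 it was 278 and 88 bp upstream (chromosome III, 7335404). The gene nhr-25 encodes a nuclear receptor needed for molting and for epidermal cells. Its stronger summit (signal 258, chromosome X, 13009107) lay within an intron, 159 bp upstream of an internal start, and ranked 46 in replicate 2 and 43 in replicate 3. K01A2.5 followed with a signal of 258 at 71 bp upstream (chromosome II, 301202).

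The summit at smk-1, which encodes a regulatory subunit of protein phosphatase 4, had a signal of 214 (chromosome V, 8610847) and lay 41 bp upstream of an internal start. At tbc-6, which encodes a protein with a TBC domain, the signal was 199 (chromosome II, 6848262), again at an internal start and 49 bp upstream. Under RefSeq starts, the summit at tbc-6 lay 138 bp downstream of its nearest start and the one at smk-1 lay 177 bp upstream. The summit at K01A2.5 did not lie in the window of a single gene under those starts. At atf-8, a bZIP transcription factor gene, the summit lay in the 5′ UTR, 39 bp downstream of the start (signal 196, chromosome V, 6105646). All 10 of these summits ranked among the 100 strongest peaks of each replicate, and the 2 replicates placed each of them on the same side of the start.

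Binding was much denser just upstream of a start than just downstream of it. Of the 591 summits, 501 lay upstream of the nearest start (84.8%, 95% Wilson interval 81.7 to 87.4) and 90 at it or downstream. The rule allows 250 bp upstream but only 200 bp downstream of each start, so the counts were divided by the length of single-gene sequence available. From 250 bp to 1 bp upstream there were 98.2 summits per Mb, against 20.4 per Mb over the first 200 bp downstream (86 summits) and 41.1 per Mb farther upstream, between 1000 and 251 bp (568 summits). These densities describe the positions and were not tested.

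The position of highest density was not at the start but farther upstream. The 50 bp from 200 to 151 bp upstream held 140 summits, or 141 per Mb. The neighbouring bins on both sides held 102 and 100.9 per Mb. Density then fell toward the start, to 83.8 per Mb in the next 50 bp, 67.1 per Mb in the last 50 bp and 32.9 per Mb in the first 50 bp downstream. Beyond the 86 summits in the first 200 bp, 4 lay 200 bp or more past a start, where only 86500 bp of single-gene sequence was available (46.2 per Mb). The median position was 121 bp upstream, with quartiles of 184 and 43 bp upstream, and 221 summits (37.4%) lay within 100 bp of the start. The limit of 250 bp cut through a continuous distribution. Just inside it were elt-1 at 250 bp from an internal start (signal 53.5) and D2005.4 at 249 bp (28.5), and just outside it were mppb-1 at 251 bp (140) and exc-15 at 252 bp (48.1), all upstream.

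**Figure D1:**
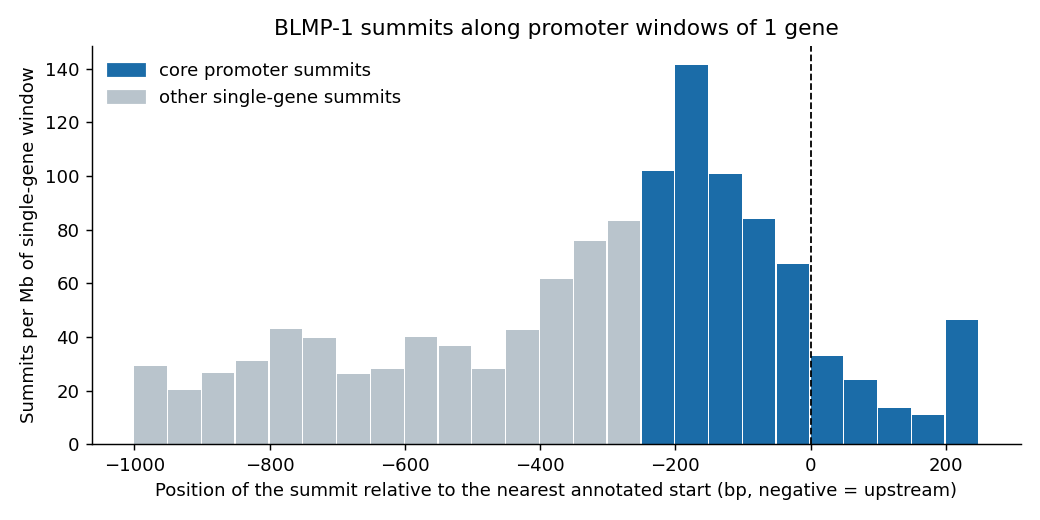
Density of summits in single-gene promoter windows, in bins of 50 bp along the distance from the nearest annotated start (x axis, negative is upstream; y axis, summits per Mb of such window). Blue bars are the core promoter summits and grey bars the summits farther upstream; the highest bar, at 141 per Mb, lies from 200 to 151 bp upstream, and the bars over the first 200 bp downstream go from 32.9 down to 10.7 per Mb. The last bar, from 200 to 249 bp downstream, stands at 46.2 per Mb but rests on 4 summits in 86500 bp.

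The distance differed with the sequence at the annotated start. At 190 summits (32.1%) the bases before the nearest start were AG, the last letters of a splice acceptor and so a mark of possible trans-splicing, against 26.3% of all starts. Those summits had a median position of 171.5 bp upstream, and 90.5% of them lay upstream. The 401 summits at other starts had a median of 89 bp upstream, and 82.0% of them lay upstream. This split was chosen after the positions had been seen, and is a description. The longer run TTTCAG, which ends in the same AG, stood before 13.0% of the nearest starts, against 11.5% of all starts.

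In relation to the gene models, 422 summits (of the 591) lay upstream of the whole gene, 91 in an intron, 62 in a 5′ UTR, 14 in a coding exon and 2 in a 3′ UTR. At 109 the nearest start was an internal one, and at 482 (81.6%) it was the outermost, whereas 32.9% of all distinct starts are internal. Genes with such a summit had more annotated starts than other genes. A single start was annotated for 293 of the 575 genes (50.96%), against 72.6% of all protein-coding genes, and their median length was 3151 bp against 2027 bp. Each start has a window of its own, so genes with more starts offered more sequence, and the part of this in the counts was not tested. Of the nearest starts, 9.81% had no annotated 5′ UTR, against 29.3% of all starts.

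Most of these summits had no other thresholded summit within 1000 bp. Another thresholded summit lay within 1000 bp of 59 of them (9.98%) and within 500 bp of 10. The spacing was not computed for the other classes, so it cannot be called particular to core promoter summits. In 41 of the 575 genes an upstream summit was also present. For scale, all 582 upstream summits together fall on at most 582 of the 19973 nuclear protein-coding genes. A pair of core promoter summits was found at 16 genes. At 7 of these 1 summit lay upstream of an annotated start and the other downstream of one. At drap-1 they were 108 bp upstream (signal 67.5) and 102 bp downstream (47.6) of the same internal start, and the first had no matched summit in replicate 3. At coel-1 they were 182 bp upstream (48.7) and 29 bp downstream (29.2). The first of these had no matched summit in replicate 2 and ranked 3332 in replicate 3, outside its strongest peaks, and the second had none in replicate 3. The others with this arrangement were klf-3, a gene of the Krüppel-like family, nhr-21, saeg-1, C35C5.8 and wdr-23, whose product regulates the stress factor SKN-1. Of the genes with this arrangement, both summits were matched in both replicates at saeg-1 alone.

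At the other genes with 2 summits, both lay on the same side. At nhr-25 the second summit was 168 bp upstream of the outermost start (chromosome X, 13008325, signal 130). The casein kinase gene kin-20 had summits 173 bp upstream of an internal start (chromosome X, 15273125, signal 124) and 209 bp upstream of the outermost one (15277973, signal 40.4). At egl-27, which encodes a relative of the NuRD subunit MTA, both lay in introns, 159 bp upstream (signal 100.6) and 166 bp upstream (40.03) of different starts. At unc-43, the gene of the calcium/calmodulin-dependent kinase, both lay in 5′ UTRs downstream of a start, with signals of 32.5 and 44.0, the latter with no match in replicate 3. The remaining genes were T23E7.6, dmd-7, jun-1, kcc-1 and unc-115.

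The core promoter summits carried the PRDM1 core word more often than their surroundings. AGYGAAAG stood within 50 bp of 49 of the 591 summits (8.29%, 95% Wilson interval 6.33 to 10.8). In the windows 1000 bp farther upstream of the gene it was in 5 (0.846%, 0.362 to 1.97), and no region had it in both windows (two-sided exact McNemar test, p = 3.89e-10). The windows 1000 bp downstream also gave 5 and those 500 bp upstream gave 6 (the same exact test, p = 1.82e-09). The median GC content was 43.6% at the summits and 35.6% in the windows 1000 bp upstream, and the part of base composition in the difference was not tested. The enrichment of this word over the whole list was known before, so it is no independent support. Among windows placed at the same median position in 18206 genes with no summit in a promoter window, 0.637% held the word.

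The word took mostly one form and one orientation. AGTGAAAG made up 41 of the 49 occurrences and AGCGAAAG 8, and no summit had more than 1. On the strand of the gene, 16 read AGYGAAAG and 33 had it on the opposite strand, as in 5 of the 6 sequences with this word printed above. At the upstream summits the counts were 12 and 22. Among the 148 strongest core promoter summits 5 occurrences lay on the strand of the gene and 19 on the other. In the successively weaker groups of the split by signal described below, the counts were 5 and 10, 5 and 3, and 1 and 1. The surplus of the opposite strand was thus seen only in the stronger groups. The orientation was looked at after the positions were known and was not tested. The median distance of the word from the summit was 22.5 bp, with 34 of 49 within 25 bp, and 43 lay upstream of the start.

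The share of summits with the word was lower in each weaker group when the 591 were split into 4 groups by signal. It was 16.22% (24 of 148, 95% Wilson interval 11.1 to 22.996) in the strongest group, with signals from 63.5 to 426. The next groups had 10.2% (15 of 147) and 5.41% (8 of 148), and the weakest group, with signals from 27.2 to 33.7, had 1.35% (2 of 148, 0.371 to 4.79). The intervals of the strongest and the weakest group did not overlap. Median GC content was 43.6% in each of the first 3 groups and 42.6% in the weakest. The support of the replicates moved with signal as well, with 145, 124, 68 and 18 summits of these groups matched among the strongest peaks of both replicates, a measure defined below. Signal and these matches rest on the same replicates, so that trend was largely fixed in advance.

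**Figure D2:**
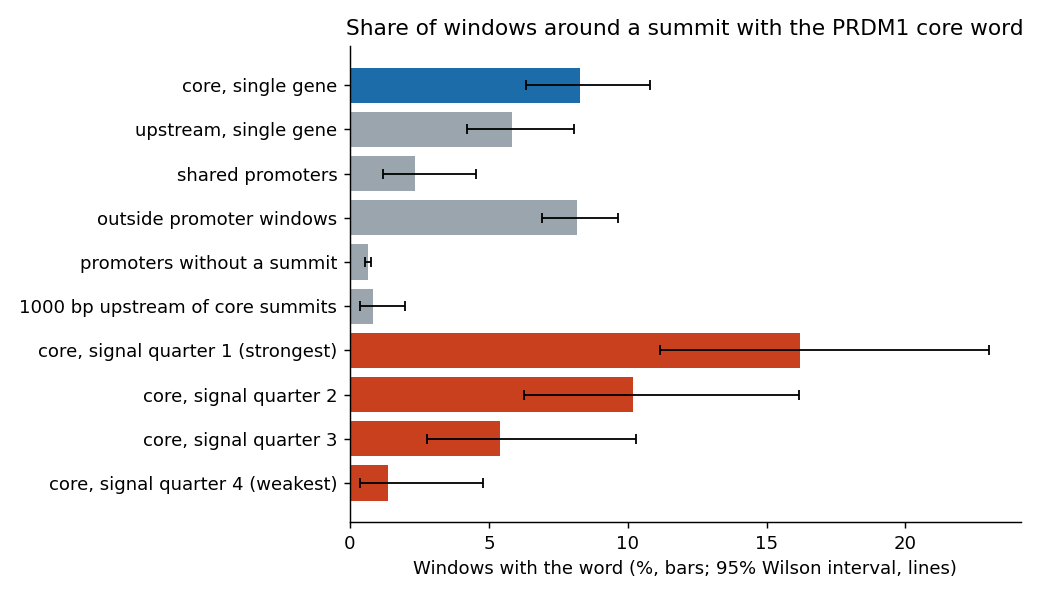
Share of windows within 50 bp of a point that hold AGYGAAAG (x axis, percent; bars are shares and lines 95% Wilson intervals) for the core promoter summits in blue, for other classes, unbound promoters and the windows 1000 bp upstream in grey, and for the core promoter summits split into 4 groups by signal in red. The core promoter summits stand at 8.29% and the 4 groups go from 16.22% down to 1.35%.

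Compared with other summits, core promoter summits did not differ detectably in this word. The upstream summits held it in 34 of 582 cases (5.84%), an odds ratio of 1.46 with a 95% interval of 0.926 to 2.29 (two-sided Fisher's exact test, p = 0.223 after Benjamini-Hochberg adjustment over 6 comparisons). All other nuclear summits together held it in 166 of 2440 (6.80%, odds ratio 1.24, 0.888 to 1.73, same exact test, adjusted p = 0.317). The upper limit of the first interval is an odds ratio of 2.29. With only the peaks above the median signal, the odds ratio against the upstream summits was 2.16 (exact test, adjusted p = 0.0508). With only peaks of both replicates it was 1.99 (exact test, adjusted p = 0.0501). Both narrowly missed the threshold of 0.05. In the shared promoters, described without a test, the word was in 8 of 342 (2.34%, 95% Wilson interval 1.19 to 4.55). That interval lay below the one of the core promoter summits (6.33 to 10.8). Outside promoter windows the word was in 124 of 1516 (8.18%).

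A scan of all 8-base words, with no motif chosen, gave similar and further words. Of 27365 words, 45 (0.164%) were more frequent at the summits than 1000 bp upstream and 23 (0.0840%) less frequent (exact McNemar test, Benjamini-Hochberg adjusted p below 0.05). The highest rank went to ACTTTCAC, which overlaps the PRDM1 core, in 43 summit windows and 3 upstream windows (exact test, adjusted p = 1.54e-06). GAGACGCA was in 44 against 4 (exact test, adjusted p = 1.54e-06) and AGACGCAG, which overlaps it, in 46 against 5 (exact test, adjusted p = 2.25e-06). Ranks 4 and 5 went to AAAAGAGA (51 against 6, exact test, adjusted p = 3.88e-06) and GAAAGTGA, again overlapping the core (43 against 4, exact test, adjusted p = 4.74e-06). AGTGAAAG itself ranked 11 and AGCGAAAG 760. Of the 45 words, 18 were made of A and G only on 1 strand, and of the 23 less frequent words 12 were made of A and T only. Many of the words overlap and are not independent. Without replicate 3 the count of more frequent words was 26, and without replicate 2 it was 30.

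AGACGCAG and the PRDM1 core were each at a minority of the summits. AGACGCAG was at 46 summits (7.78%), of which 3 also had AGYGAAAG. Over all 591 summits 49 (8.29%) had AGYGAAAG, so a small overlap does not show that the words avoid each other. The overlap was not tested. It was at 8.59% of the upstream summits, 10.2% of those in shared promoters and 7.45% of those outside promoter windows, against 1.40% of the promoters without a summit. Its median distance from the summit was 14.5 bp over 48 occurrences, against 22.5 bp for the PRDM1 core. Within 25 bp lay 34 of the 48, against 34 of 49 for the core. At the upstream summits the medians were 21 bp for AGACGCAG and 23 bp for the core. These distances were not tested. The orientation of AGACGCAG at the core promoter summits was 16 on the strand of the gene and 32 on the other.

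**Figure D3:**
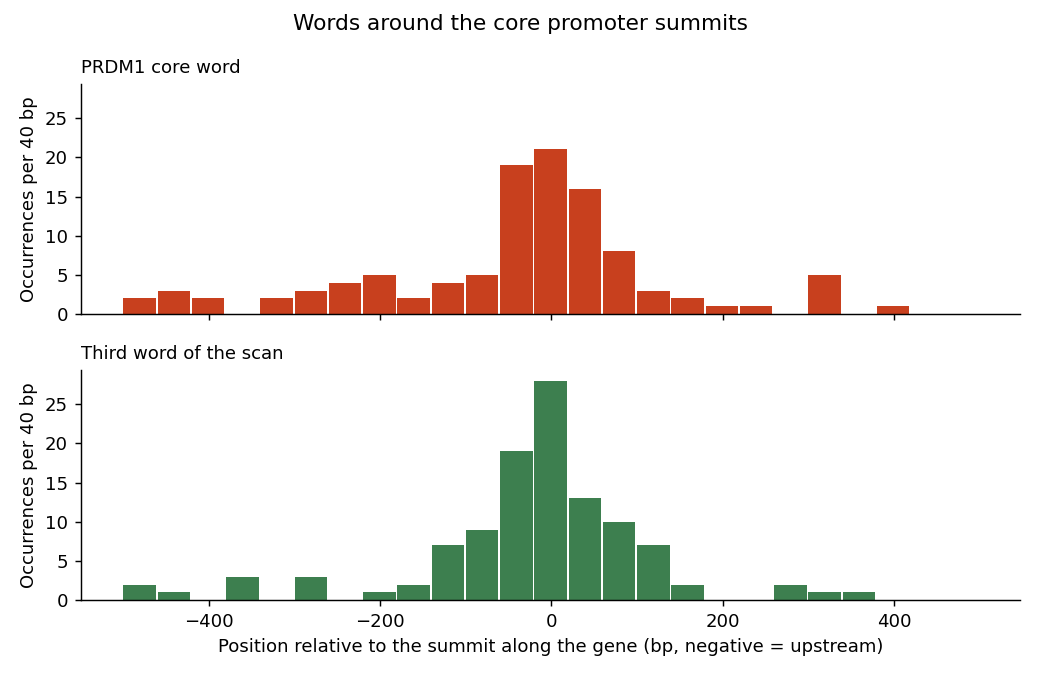
Occurrences of AGYGAAAG (upper panel) and AGACGCAG, rank 3 in the scan (lower panel), per 40 bp around the 591 core promoter summits (x axis, position relative to the summit along the gene, negative is upstream). The central bin, within 20 bp of the summit, holds 21 and 28 occurrences.

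Other words known from promoters were counted on both strands for description, and were chosen after the files had been seen. TATAAA, the TATA box core, was in 6.77% of the summit windows and in 13.3% of the promoters without a summit. CACGTG, an E-box bound by bHLH factors, was in 8.46%, against 5.15% of the upstream summits and 2.04% of the promoters without a summit. GATAAG, bound by GATA factors, was in 9.48% against 6.51%, GGGCGG in 6.77% against 2.65%, and TGACTCA, a bZIP site, in 1.52% against 1.57%. The windows at promoters without a summit had a median GC content of 33.7%, against 43.6% at the summits, and the part of base composition in these shares was not tested.

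The signals of core promoter summits were somewhat lower than those of other summits, but not past the adjusted threshold. Of the 591, 271 (45.9%) had a signal above the median of the list. Of the upstream summits 299 of 582 did (51.4%), an odds ratio of 0.802 (Fisher's exact test, 95% interval 0.637 to 1.01, adjusted p = 0.185). Of all other summits 1230 of 2440 did (50.4%), an odds ratio of 0.833 (0.696 to 0.998, exact test, adjusted p = 0.185). Without replicate 3, both differences passed (odds ratios 0.732 and 0.792, Fisher's exact test, adjusted p = 0.0238 for each), and without replicate 2 neither did (0.993 and 1.03, adjusted p = 1). The median signal was 42.0, against 45.4 at the upstream summits and 42.9 in shared promoters.

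Support by the replicates did not differ detectably between core promoter summits and other summits. A relaxed peak of replicate 2 had its summit within 100 bp of 569 of the 591, one of replicate 3 within 100 bp of 583, and both did at 562. The thresholded list was derived from these lists, so such support was largely fixed in advance. A stricter match took from each replicate only as many of its strongest peaks as the thresholded list holds. These matches were 452 in replicate 2, 478 in replicate 3 and 355 (60.1%) in both. The upstream summits had 348 of 582 in both (59.8%), an odds ratio of 1.01 (Fisher's exact test, 95% interval 0.801 to 1.28, adjusted p = 0.953). With only the peaks above the median signal this odds ratio was 1.74 (exact test, adjusted p = 0.156). All other nuclear summits had 1524 of 2440 (62.5%), an odds ratio of 0.904 (0.752 to 1.09, exact test, adjusted p = 0.359). All of the 100 strongest core promoter summits were in both and 6 of the 100 weakest. The signal of the list rests on the same replicates, so this contrast was largely fixed in advance. Across the 562 summits Spearman's rho of the ranks was 0.519, a description over sites that share 2 libraries.

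The matched summits of the replicates lay close together. Both had to lie within 100 bp of the same thresholded summit, so closeness and side of the start were partly fixed in advance. The median distance between the summits of replicates 2 and 3 was 26 bp, and 434 of the 562 (77.2%) lay within 50 bp of each other. Both lay on the same side of the start at 525 (93.4%). The median positions were 127.5 bp upstream in replicate 2 and 125 bp upstream in replicate 3.

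**Figure D4:**
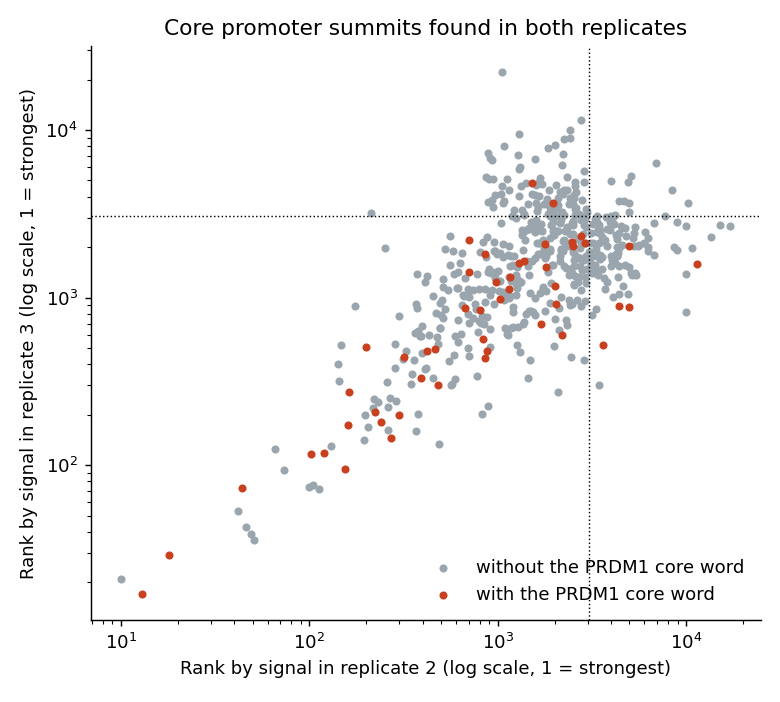
Rank by signal in replicate 2 (x axis) and replicate 3 (y axis), both on log scales with 1 the strongest, for the 562 core promoter summits matched within 100 bp in both; red points hold AGYGAAAG and dotted lines mark the rank up to which a peak counts among the strongest. The strongest summits have similar ranks in both replicates, and the weak ones scatter on either side of the lines.

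The genes were compared with lists of pathways and families, read against a background of 2.88% (a core promoter summit of their own at 575 of 19973 nuclear protein-coding genes). Among the 17043 genes with any such sequence that belongs to 1 gene only, the share was 3.37%. The lists were drawn up with earlier results known and are described by counts, with no test. A summit at a gene does not show that the gene is regulated. High shares were not always particular to core promoters. Upstream summits were at 5 of 16 heterochronic, 5 of 30 molting, 8 of 26 bZIP and 18 of 270 nuclear hormone receptor genes. In those lists they were no rarer than core promoter summits. They were rarer in others, at 4 of 27 autophagy genes, 11 of 176 cuticle collagens and 1 of 16 epidermal markers.

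Genes of the epidermis, the cuticle and larval timing were among the lists with shares above the background. The heterochronic genes control when larval cells adopt their stage-specific fates. Of 16 such genes 4 had a core promoter summit (25%, 95% Wilson interval 10.2 to 49.5). They were kin-20, as above, lin-14, an early transcription factor (signal 56.0, 167 bp upstream, ranks 1108 in replicate 2 and 1066 in replicate 3), lin-29, a zinc finger factor of the larval-to-adult switch (35.6, ranks 2503 and 2877), and lin-28, an RNA-binding protein (35.1, 34 bp upstream of an internal start, ranks 5101 and 1407). The summit at lin-28 was not among the strongest peaks of replicate 2, and without replicate 3 the list had 3 such genes.

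Of 30 molting genes 5 had such a summit (16.7%, 7.34 to 33.6). Beside nhr-25 these included the astacin protease gene nas-36 (signal 100.1, 36 bp upstream) and che-14, needed for secretion at the apical surface of epithelia (87.9, 70 bp upstream), both with AGTGAAAG within 50 bp of the summit. The others were mlt-7, which encodes a peroxidase of the cuticle (39.2), and mlt-11, which encodes a protease inhibitor (33.6). A summit of replicate 3 was not matched at mlt-7. Of this list 3 genes had a core promoter summit without replicate 2, 7 without replicate 3 and 3 with the limit of 150 bp. Of 16 epidermal markers 4 had one, nhr-25, che-14, elt-1 and the collagen gene col-10, and 2 of these are also in the molting list.

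Cuticle collagens had a core promoter summit in 15 of 176 genes (8.52%, 5.23 to 13.6). The strongest were at dpy-8 (signal 64.5, 133 bp upstream, ranks 1176 in replicate 2 and 661 in replicate 3), col-147 (63.9, 160 bp upstream, ranks 1383 and 713) and dpy-2 (57.5, 215 bp upstream, ranks 2413 and 902). All 15 lay upstream of the gene, and 1 of them, at dpy-9, held AGYGAAAG. The median signal of the 15 was 38.5, below the 42.0 of all 591. The count was 11 without replicate 2, 11 without replicate 3, 7 with only peaks of both replicates and 6 with the limit of 150 bp.

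Among transcription factor families, 7 of 26 bZIP genes had such a summit (26.9%, 13.7 to 46.1). After atf-8 came crh-1, the worm CREB gene, at an internal start (signal 61.3, with no matched summit in replicate 2), and jun-1, related to mammalian JUN, 174 bp upstream (57.7, ranks 525 in replicate 2 and 1945 in replicate 3). The others were xbp-1, a factor of the unfolded protein response, zip-1, cebp-1 and zip-11. With the limit of 150 bp the bZIP count was 6. Of 270 nuclear hormone receptor genes 16 had one (5.93%, 3.68 to 9.41). The strongest after nhr-25 were nhr-50 (168, 83 bp upstream) and nhr-135 (117, 239 bp upstream). For these receptors the count was 15 without replicate 2, 11 without replicate 3 and 8 with only peaks of both replicates. Of 84 homeobox genes 1 had one, the Hox gene lin-39 (76.9, 40 bp downstream of an internal start, in the 5′ UTR). With RefSeq starts 0 homeobox genes had one, and without replicate 3 there were 3.

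Autophagy genes had a core promoter summit in 6 of 27 cases (22.2%, 10.6 to 40.8). The LC3-like lgg-2 led (ranks 51 in replicate 2 and 36 in replicate 3), followed by its relative lgg-1, which encodes the GABARAP-like protein (signal 82.0, 89 bp upstream, ranks 387 and 586), and atg-18, which encodes a phosphoinositide-binding protein (54.2, 215 bp upstream, ranks 1469 and 831). The scaffold gene epg-7, the membrane protein gene atg-9 and epg-6, related to atg-18, followed with signals of 49.8, 32.6 and 27.3. None of the 6 held AGYGAAAG within 50 bp. Without replicate 3 the count was 3, and without replicate 2 it was 5. With the limit of 150 bp it was 1. The insulin and stress pathway had 1 of 15, hlh-30, the worm TFEB gene (28.3), which was lost without replicate 2.

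Most of the cytosolic ribosomal protein genes with a promoter summit had none in a core promoter of their own. Of 81 cytosolic ribosomal protein genes 56 had some promoter summit, but 38 of these genes had one in a promoter shared with a neighbour, 13 had an upstream summit and 5 had a core promoter summit (6.17%, 2.67 to 13.6). Only 35 of the 81 had any core promoter sequence that belonged to them alone, so for the rest the rule fixed this in advance. The 5 genes are among those 35, and the background over all genes with such sequence is 3.37%. The 5 summits were moderate in signal, at rpl-24.2 (58.1), rpl-19 (40.4), rps-4 (40.2), rps-7 and rps-17, and lay between 165 and 246 bp upstream of the nearest start. Without either replicate the count was 3, with the limit of 150 bp it was 0, and with shared promoters included it was 14. Mitochondrial ribosomal proteins had 3 of 70, mrpl-28 (68.5), mrps-9 (34.8) and mrpl-55 (27.3), and 1 without replicate 2. Chaperones had 3 of 59, dnj-9 (69.6), hsp-3, a gene of the endoplasmic reticulum chaperone BiP (65.7), and dnj-24 (53.5).

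Single summits were found in 5 further lists of this kind. They were at eif-3.B among 38 translation factors (signal 66.5), rpn-11 among 33 proteasome subunits (33.3), cox-5B among 33 genes of oxidative phosphorylation (189, 57 bp upstream, ranks 105 in replicate 2 and 76 in replicate 3), vha-9 among 20 of the vacuolar ATPase (38.4) and ubc-25 among 21 ubiquitin-conjugating enzymes (60.1). Histones had 2 of 72, the H4 gene his-37 (138, 59 bp upstream) and his-72, a gene of histone H3.3 (29.4). Only 8 of the 72 histone genes had core promoter sequence of their own. Of the lists in this paragraph the count was 2 translation factors, 2 ubiquitin-conjugating enzymes and 0 proteasome subunits without replicate 2, and 0 ubiquitin-conjugating enzymes, 0 vacuolar ATPase genes and 1 histone gene without replicate 3. With RefSeq starts the count for oxidative phosphorylation was 0.

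Large families of environmental response genes were at or near 0. Of 1309 chemoreceptor genes 2 had a core promoter summit (0.153%, 0.0419 to 0.555), srh-46 (57.6) and srh-2 (30.3), and of 322 F-box genes 1 had one, fbxb-72 (64.1). The 240 C-type lectin genes had none, which allows a share of up to 1.25%. Where a list had none, this limit is 3 genes divided by the size of the list, and the Wilson limits in the plot of the lists are somewhat higher. Without replicate 2 the chemoreceptor count was 1, and without replicate 3 the F-box count was 2. These families hold many similar copies, and the sources used here do not say how reads from repeated sequence were treated. None of the 16 intestinal, 16 body wall muscle, 21 neuronal and 21 germline markers had a core promoter summit, which allows up to 18.8% for the first 2 lists and 14.3% for the others. The aminoacyl-tRNA synthetases (32 genes) and Rab GTPases (20 genes) also had none, which allows up to 9.38% and 15%. In whole animals, binding in few cells and weak binding in many cannot be told apart.

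**Figure D5:**
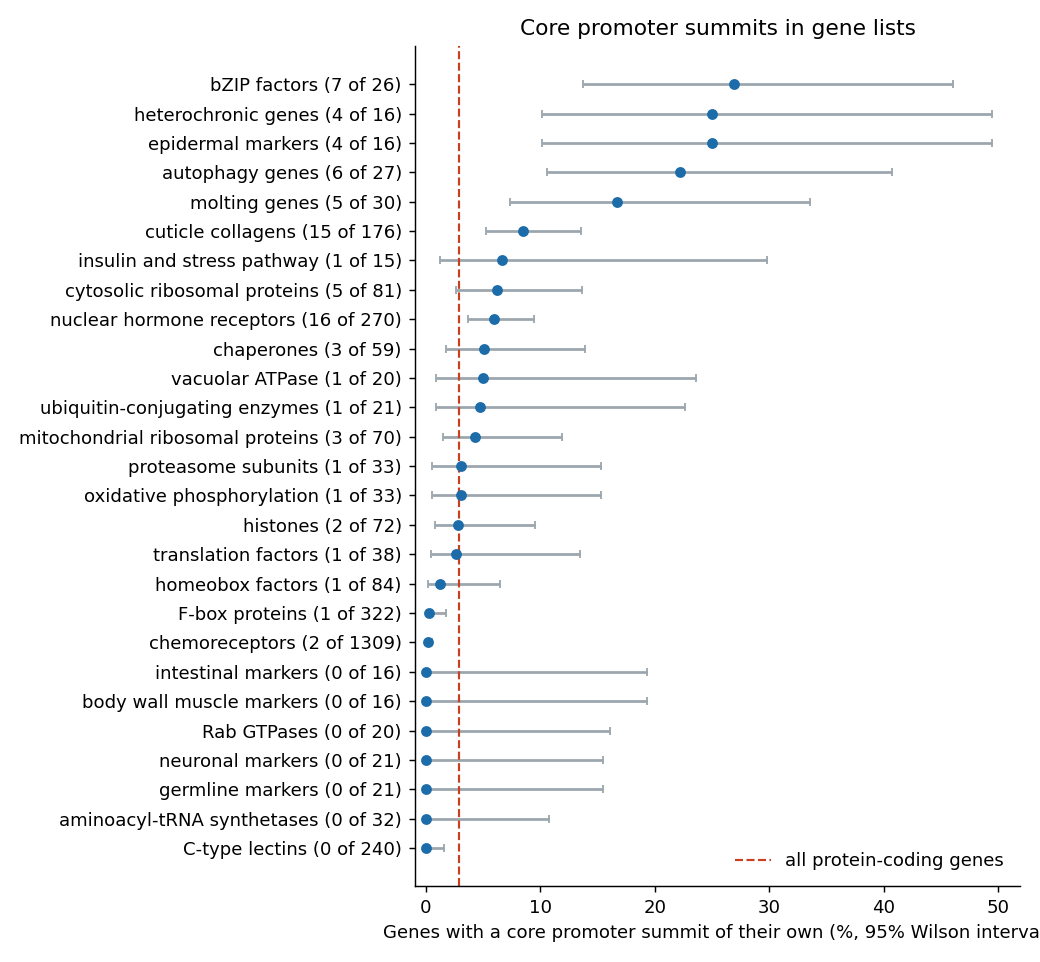
Share of the genes of each list with a core promoter summit of their own (x axis, percent; points are shares and lines 95% Wilson intervals, with the counts in the labels). The dashed line is the background of 2.88% over all protein-coding genes; the bZIP, heterochronic, epidermal and autophagy lists lie between 22.2% and 26.9%, and the chemoreceptors at 0.153%.

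The chromosomes shared the summits unevenly. Chromosome X held 130 of the 591, at 124 of its 2577 genes with single-gene core sequence (4.81%, 95% Wilson interval 4.05 to 5.71). On the autosomes the share ran from 2.65% on chromosome V to 3.71% on chromosome III (79 of 2131). Of all 3031 nuclear summits chromosome X held 663, and core promoter summits made up 19.6% of those. On the autosomes they made up from 16.3% of the nuclear summits on chromosome III to 24.0% on chromosome V. The share of core promoter summits with AGYGAAAG was 13.1% on chromosome I and 4.81% on chromosome II, with 6.92% on X. These shares were not tested.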

How the data were processed

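Binding was measured by chromatin immunoprecipitation and sequencing in 2 biological replicates of 1 group. Per the deposited file descriptions, relaxed lists per replicate and for pooled replicates fed a reproducibility analysis that gave the thresholded list. The sources used here do not give the aligner, peak caller, versions or threshold. Signal values were deposited by the authors on an unstated scale and were used to rank peaks within a list. The deposited −log10 q values stood at 3.98 throughout the thresholded list, so peaks were not ranked by them. Depth is unknown, so intervals cover counting of peaks only.

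From the ce11 lists, nuclear summits were placed relative to Ensembl release 115 starts; coordinates are 1-based. A summit outside its interval was set to the last base (3, none among the 591). Words were sought on both strands within 50 bp of the summit, and replicate summits matched within 100 bp. Tests were exact McNemar tests for words and Fisher's exact test for classes (two-sided, Benjamini-Hochberg adjusted, threshold 0.05); all treat sites as independent, which neighbouring sites may not be, and none measures variation between animals. Promoters without a summit were read 121 bp upstream of the outermost start.

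The regions, lists and tests were chosen with earlier results of these data known. Named genes are the 10 strongest, up to 3 per list by signal, genes with 2 summits, those beside the 250 bp limit and the 5 highest words; other list members were named after their values were seen. Of the list genes, atf-5 and atg-11 found no match. SciPy 1.17.1, pandas 2.3.3 and NumPy 2.4.6 ran under Python 3.11.15, with matplotlib 3.10.9 for plots, and the statistics were tested on simulated data. Alternatives were other starts, limits, windows, flanks, overlap rules and either replicate alone.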

Additional observations from a re-analysis of the deposited data

How the results depend on the processing

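The upstream share stayed between 82.9% and 86.3% under all alternatives except the limit of 150 bp (77.3%, a window that holds less upstream sequence), and AGYGAAAG stayed more frequent at summits than in the flank under every alternative run, with the test passed in each. The number of summits was 271 with the peaks above the median signal, 339 with the limit of 150 bp and 355 with only peaks of both replicates, and 541 of the 591 were kept with RefSeq starts. Genes with such a summit made up 1.34%, 1.67% and 1.75% under those 3 settings and 4.15% with any number of genes.

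The count of 45 words more frequent at summits moved to 12, 23, 19 and 133 under the same 4 settings, to 8 with the 25 bp window and to 88 with the 100 bp window; without either replicate it ran from 26 to 30. The odds ratio for signals above the median ran from 0.732 to 0.993 against the upstream summits and from 0.792 to 1.03 against all others when a replicate was left out. With any number of genes both passed (0.767, exact test, adjusted p = 0.0336, and 0.792, adjusted p = 0.0275). There AGYGAAAG against all other summits turned to 0.833 (exact test, adjusted p = 0.476).

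No difference in replicate support passed, and its direction turned in several alternatives. Against the upstream summits the odds ratio was 0.997 with the limit of 150 bp, 0.967 with any number of genes, 0.958 with matches within 200 bp and 0.914 with reciprocal overlap, and it was highest, at 1.74, with the peaks above the median signal (exact test, adjusted p = 0.156). Against all others it was 1.27 with those peaks and 1.03 with matches within 50 bp. The offset at tbc-6 turned from -49 to 138 with RefSeq starts. The causes were not tested. Replicate support was not computed where a replicate was left out or only peaks of both were kept. No paired analysis was possible because there is 1 group.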
